A study of Mus musculus with 4 samples.

Results

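Smooth muscle contracts through a shared set of proteins, and 8 genes of that set were followed here through the cells of mouse pancreas. They were Acta2, Tagln, Myl9, Tpm1, Tpm2, Myh11, Cnn1 and Des, found by symbol, and they make up 8 of the 31053 genes counted. All cells came from wild-type (WT) C57BL/6 mice, in 4 groups of 1 library each. C2D was taken at 2 days and C6W at 6 weeks of recovery after caerulein, a cholecystokinin analogue used to induce pancreatitis in mice. S2D and S6W were the matching saline groups, which the labels call inflammation-naïve. Pancreata were dissociated, DAPI-negative (live) cells were sorted, and RNA was counted as unique molecular identifiers (UMIs) with the 10x Genomics 3' assay. Age, sex and the number of animals behind a library are not given in the sources used here.

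In a contractile cell, the motor protein made of Myh11 (the smooth muscle myosin heavy chain) and light chains such as Myl9 pulls on filaments of Acta2 (smooth muscle actin). Tropomyosins (Tpm1, Tpm2) lie along those filaments, transgelin (Tagln) and calponin (Cnn1) bind them, and desmin (Des) forms the intermediate filaments that tie the cell's contractile units together. In the pancreas these proteins belong to the mural cells of vessels, that is smooth muscle cells and pericytes. Acta2 is also the common mark of myofibroblasts and Des of stellate cells, the vitamin A-storing fibroblasts of the pancreas. Serum response factor with its partner myocardin (Myocd) drives many of these genes through a DNA element called the CArG box. Tpm1 and Myl9 are used outside muscle as well.

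In GRCm38 (mm10) the genes lie apart: Acta2 at chr19:34241090-34255590 (minus strand), Tagln at chr9:45929619-45936058 (minus), Myl9 at chr2:156775420-156781658 (plus) and Tpm1 at chr9:67022590-67049406 (minus). Tpm2 is at chr4:43514711-43523765 (minus), Myh11 at chr16:14194535-14291372 (minus), Cnn1 at chr9:22099216-22109630 (plus) and Des at chr1:75360329-75368579 (plus). All 8 are annotated as protein-coding. RefSeq promoters (GRCm38.p6, 250 bases before to 50 after a gene's start) were at hand for 6 of the 8, all but Tagln and Myh11. The sequences of Acta2 and Myl9 are shown because they were the 2 that held CArG-like elements, taken as CC, then 6 bases of which at least 5 are A or T, then GG. They are written 5′ to 3′ on the gene's strand with these elements, and any MCAT element (CATTCC on either strand), in capitals.
Acta2, chr19:34255324-34255623, minus strand: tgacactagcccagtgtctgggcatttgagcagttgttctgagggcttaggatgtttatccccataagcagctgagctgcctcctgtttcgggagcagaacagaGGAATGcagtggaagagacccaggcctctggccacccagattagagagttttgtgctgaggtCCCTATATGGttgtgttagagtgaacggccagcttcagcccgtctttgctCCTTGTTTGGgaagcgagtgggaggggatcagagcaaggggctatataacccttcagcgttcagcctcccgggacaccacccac
Myl9, chr2:156775214-156775513, plus strand: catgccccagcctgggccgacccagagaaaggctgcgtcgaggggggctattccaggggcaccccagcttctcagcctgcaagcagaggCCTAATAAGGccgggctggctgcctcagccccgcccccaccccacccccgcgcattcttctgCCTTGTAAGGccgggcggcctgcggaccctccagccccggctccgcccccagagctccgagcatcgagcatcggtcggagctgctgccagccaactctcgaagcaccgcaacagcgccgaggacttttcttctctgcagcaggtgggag

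Each of these promoters held 2 CArG-like elements, while 9.98% of all 32851 promoters of the same length held at least 1 and 0.822% held 2 or more. In Acta2 they began at bases -84 and -34 from the RefSeq start, and in Myl9 at -161 and -99. The Myl9 element at -161 was the only strict one, with 6 of 6 middle bases A or T, a form found in 1.63% of promoters. MCAT elements were found in Acta2 (at -146) and Tpm1 (at -56), against 14.7% of all promoters. The matched letters describe these windows and no binding was measured.

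The libraries held 5433 (C2D), 5316 (S2D), 4195 (C6W) and 2623 (S6W) barcodes, and 4651, 3308, 2743 and 2018 cells passed the filters, with median depths of 14057, 8325, 10541 and 10341 UMIs. Libraries shared 0 to 10 barcodes pair by pair. Clusters were made without the 8 genes or their relatives of the cytoskeleton, and were named from marker genes. All mural-like cells fell into 1 cluster of 81 cells, with 24 in C2D, 23 in S2D, 18 in C6W and 16 in S6W. It showed 14 of 14 mural markers raised and was led by Rgs5, and Pdgfra, which marks fibroblasts, had no UMI there. Fibroblast markers as a set were not absent from it. Of 12 such markers, 10 had a UMI in its C2D cells, 9 in S2D, 9 in C6W and 6 in S6W. Fibroblast-like cells numbered 587, 686, 1110 and 741. In a dissociated sample, fewer cells of a type and poorer recovery of that type cannot be told apart, and the values below are levels within the cells that were recovered. Intervals (95%, exact) cover counting error only, since each group is 1 library.

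The first question was which cells carried these genes. All 8 were highest in mural-like cells in each of the 4 libraries, and all 8 were higher there than in fibroblast-like cells across libraries (edgeR quasi-likelihood test on summed UMIs, library as a block, adjusted p between 1.4e-09 and 1.7e-05). Of all 12062 genes tested, 8.86% were higher in mural-like cells and 14.3% lower. The same 8 were higher than in all remaining cells (10.5% of 13585 genes higher and 18.3% lower). The 8 genes took no part in forming the clusters, while the mural markers did.

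Myh11, the smooth muscle myosin heavy chain, stood at 593 counts per 1000000 UMIs of the class (CPM) in mural-like cells of C2D, 3507 in S2D, 3027 in C6W and 1619 in S6W. In fibroblast-like cells it was at 1.02, 0.94, 0.45 and 0.51 CPM in the same libraries, from 5 to 14 UMIs. The log2 ratio of mural-like over fibroblast-like cells was 10.98 ± 0.54 (edgeR, 4 libraries). Here and below the ± value was derived from the F statistic of the test and is not the spread between libraries. Calponin (Cnn1), a brake on actin and myosin, had a log2 ratio of 11.04 ± 0.54, with fibroblast-like cells near the floor. In S6W the counting interval of its ratio alone ran from 8.34 to 16.3. Its mural-like level was 17.0 CPM in C2D, 255 in S2D, 281 in C6W and 201 in S6W, and fibroblast-like cells held 0 or 1 UMI in each library.

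Acta2, the actin of the contractile filament, had 3765 CPM in mural-like cells of C2D, 11859 in S2D, 16784 in C6W and 10456 in S6W. Fibroblast-like cells had 195, 17.7, 21.3 and 17.1 CPM, and the log2 ratio between the classes was 8.24 ± 0.84. The mural-like level was 19.3-fold above the fibroblast-like level in C2D and 609.8-fold to 789-fold above it in the other 3 libraries. Tagln, an actin-binding protein of smooth muscle, had 2914, 9484, 12303 and 9426 CPM in mural-like cells and 278, 10.8, 20.7 and 31.1 CPM in fibroblast-like cells (log2 ratio 7.82 ± 0.94). C2D was the library in which the 2 classes lay closest for both genes.

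The other 4 genes were shared more with fibroblast-like cells. Myl9, the light chain whose phosphorylation starts contraction, had 2334, 5757, 6407 and 5089 CPM in mural-like cells of C2D, S2D, C6W and S6W, and 92.4, 131.6, 64.8 and 141.6 CPM in fibroblast-like cells (log2 ratio 5.21 ± 0.33). Desmin (Des) had 937, 1279, 1797 and 1719 CPM against 64.9, 55.2, 45.02 and 73.8 CPM (4.30 ± 0.28). Neither class was free of these genes in any library. Tropomyosin Tpm2 had 1274, 4219, 5200 and 2974 CPM in mural-like cells and 206, 62.2, 74.7 and 69.0 CPM in fibroblast-like cells (4.91 ± 0.51). Tpm1, the other tropomyosin followed here and used outside muscle as well, had 1850, 2783, 3397 and 2324 CPM against 192, 83.9, 79.8 and 83.5 CPM (4.39 ± 0.34).

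**Figure D1:**
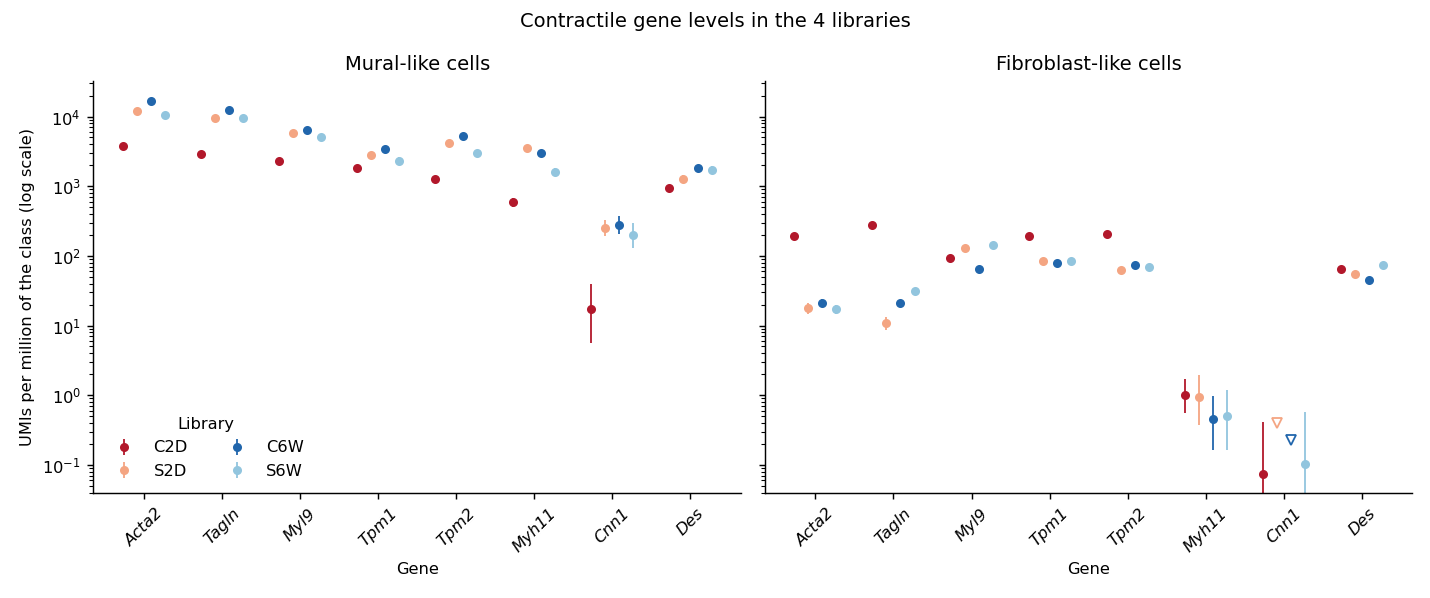
Level of each gene in CPM of the class (log scale), in mural-like cells (left) and fibroblast-like cells (right), with 1 point per library and exact Poisson intervals. Open triangles mark a library with 0 UMIs, drawn at the level of 3 UMIs. C2D is the lowest mural-like library for all 8 genes and the highest fibroblast-like library for Acta2, Tagln, Tpm1 and Tpm2.

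The genes' relatives show how far this pattern reached. Of 30 tested genes of a wider list of smooth muscle cytoskeleton and handling proteins, 26 were higher in mural-like than in fibroblast-like cells and 1 lower. The largest differences were in Pln (phospholamban, log2 ratio 13.33), Casq2 (the calcium-binding calsequestrin, 12.12), Lmod1 (leiomodin, which starts actin filaments, 11.05) and Kcnmb1 (a potassium channel subunit of smooth muscle, 9.46). The gene on the list that was lower was Fhl2 (-2.02), an adaptor of the cytoskeleton. The non-muscle counterparts were split: of 11, 2 were higher and 2 lower. Actb, the cytoplasmic actin, stood at 0.98 ± 0.19 (adjusted p = 0.0013, edgeR) and Tpm3 at -0.69 ± 0.23 (adjusted p = 0.044, edgeR). Actg1 (-0.25), Myl12a (-0.23), Myh9 (0.25) and Tpm4 (0.62) did not pass. Among 26 regulators 8 were higher and 5 lower; Myocd, the muscle partner of serum response factor, had 8.74 and the vessel receptor Notch3, a marker used to name the mural-like cluster, had 5.39, while Smad3 (-3.91) and Tgfbr2 (-3.47), both of transforming growth factor signalling, were lower in mural-like cells.

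For some genes, such as Acta2 and Tagln, which cells held most of the UMIs depended on the library. Fibroblast-like cells held most of Des in each library (58.8% to 76.1%), and in S6W most of Myl9 (67.2%) and Tpm2 (63.2%). Mural-like cells made up 0.516% of C2D cells and 0.695% of S2D cells. They held 28.7% of Acta2 UMIs in C2D and 94.8% in S2D, while fibroblast-like cells held 69.6% in C2D and 4.72% in S2D. At 6 weeks the mural-like share of Acta2 was 91.0% in C6W and 88.9% in S6W. Tagln followed the same order, with mural-like shares of 17.5% in C2D, 94.4% in S2D, 87.9% in C6W and 79.0% in S6W. Myh11 stayed with the mural-like cells, which held 92.6% of it in C2D and 96.8% to 98.5% in the other libraries. Cnn1 was the opposite case: in C2D 90.5% of its 63 UMIs lay outside both classes, 53 of them in ductal-like cells.

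**Figure D2:**
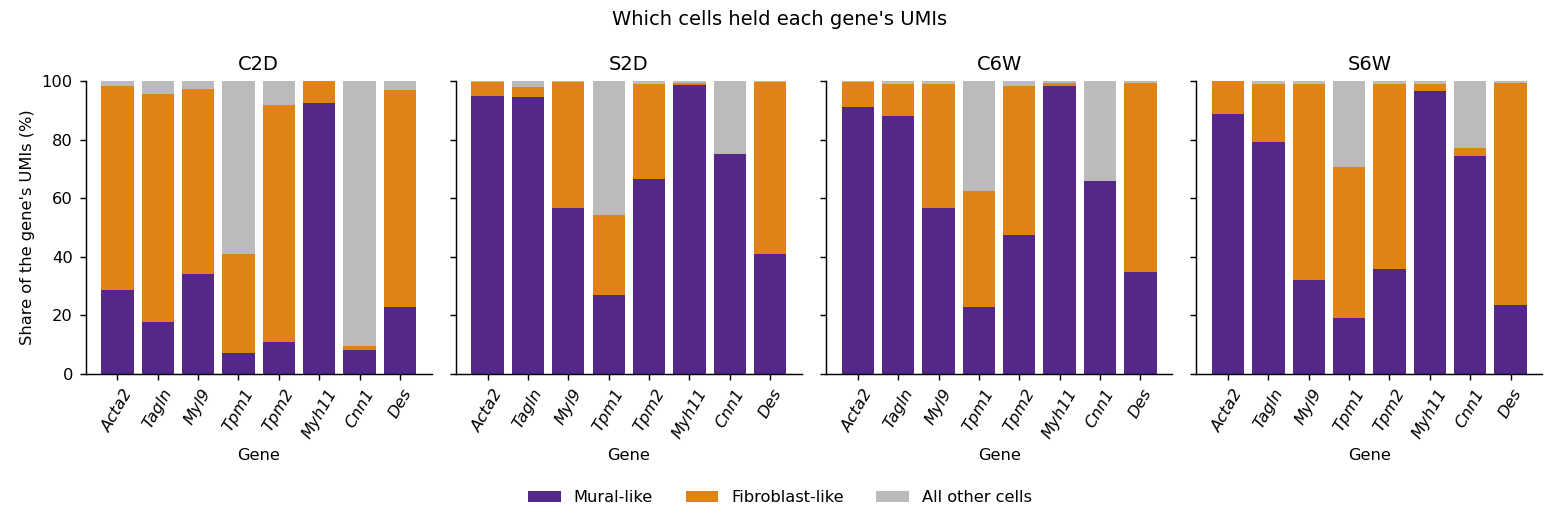
Share of each gene's UMIs (percent) held by mural-like, fibroblast-like and all other cells, with 1 panel per library. In C2D the mural-like share is at or below 34.2% for every gene but Myh11.

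The second question was how the genes differed between caerulein and saline within mural-like cells. At 2 days 6 of the 8 were at least 2-fold lower in C2D than in S2D, against 14.7% of 810 genes with enough UMIs, and none was higher. The 8 genes together took 1.37% of mural-like UMIs in C2D and 3.91% in S2D. Their median log2 ratio was -1.74, while that of all 3901 genes measured was 0.03. There is no replicate library, so these ratios have no p-value.

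The myosin heavy chain Myh11 had a log2 ratio of -2.63 (-2.87 to -2.39), from 174 UMIs in C2D and 784 in S2D. Its light chain Myl9 was at -1.36 (-1.499 to -1.23). Of the filament genes, Acta2 was at -1.72 (-1.82 to -1.61) and Tpm2 at -1.79 (-1.96 to -1.61). Both actin-binding genes were lower too, Tagln at -1.76 (-1.88 to -1.65) and Cnn1 at -3.96 (-5.64 to -2.66), with Cnn1 at 5 UMIs in C2D and 57 in S2D. Tpm1 (-0.65, -0.82 to -0.48) and Des (-0.51, -0.75 to -0.27) stayed short of a 2-fold difference. Myh11 and Cnn1, which had the largest ratios of mural-like over fibroblast-like cells, had the lowest ratios here. Against all other cells Cnn1 was less restricted, at a log2 ratio of 6.68, while Myh11 was at 13.46.

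Across the wider lists, 19 of 26 measured smooth muscle cytoskeleton genes were at least 2-fold lower in C2D and 1 higher. They included Smtn (smoothelin, -2.83), Synm (synemin, an intermediate filament protein, -2.60) and Actg2 (the actin of gut smooth muscle, -2.13). Of 10 non-muscle relatives 3 were at least 2-fold higher and none lower, where 14.1% of all genes were higher. These were Myl12a (1.501), Tagln2 (1.48) and Cnn3 (1.16), the non-muscle forms of Myl9, Tagln and Cnn1. Tpm4, counted in the wider cytoskeleton list, was at 1.40. Actg1 was at 0.56, Myh9 at 0.55, Tpm3 at 0.04 and Actb at -0.63. Among 17 regulators Myocd was at -2.26 (6 UMIs against 21), Smad4 at -1.45 and Foxf1, a transcription factor of visceral mesenchyme, at 2.94 (63 UMIs against 6), with Tgfb1 at 1.19.

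Genes that separate pericytes from arterial smooth muscle moved with this difference; both lists were open to the clustering. Of 8 measured pericyte genes 5 were at least 2-fold higher in C2D and none lower, and their summed level was 11300 CPM in C2D, 4223 in S2D, 3751 in C6W and 8342 in S6W. Rgs5 was at 7248, 1789, 1589 and 4105 CPM. Of 12 other genes of arterial smooth muscle 8 were at least 2-fold lower in C2D and none higher. Early-response genes of dissociation were also lower, 9 of 18, among them Atf3 (-2.22), Egr1 (-1.80) and Fos (-1.75). Summed macrophage markers stood at 1823 CPM in C2D mural-like cells and 17.9 in S2D ones (11 and 3 of 12 markers with a UMI). A single C2D cell held 502 of those macrophage marker UMIs, and the median C2D cell held 1. Summed fibroblast markers reached 4587 CPM for C2D against 1270 for S2D (10 and 9 of 12). Free digestive enzyme RNA in mural-like cells summed to 1748 CPM in C2D and 17308 in S2D, and the count was again 6 of 8 with those genes left out of the totals. The part of the marker genes in the result was not tested.

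Sorting the mural-like cells by pericyte channel genes gives these values within a narrower group. Cells with at least 3 UMIs over Kcnj8, Abcc9 and Higd1b numbered 21 of 24 in C2D, 9 of 23 in S2D, 6 of 18 in C6W and 9 of 16 in S6W. In those cells 6 of 8 genes were again at least 2-fold lower in C2D. Acta2 had 2992 CPM for C2D against 10383 for S2D, and Myh11 had 378 against 2701. Per cell, however, the median of Acta2 was 22.4 UMIs per 10000 in C2D and 30.6 in S2D, with highest cells at 179.8 in C2D and 209.7 in S2D. The 9 S2D cells were mixed. Acta2 was at 153, 109, 210 and 152 per 10000 in those with Rgs5 at 0.723 or less. It was at 30.6, 0, 0, 18.6 and 0 in those with Rgs5 at 51.3 or more. In the cells with fewer than 3 such UMIs, which were only 3 in C2D and 14 in S2D, Acta2 stood at 11603 CPM for C2D against 12624 for S2D. In that group none of the 8 genes was 2-fold lower. The part of the class's makeup in the difference was not tested.

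Single cells show the spread. In C2D 23 of 24 mural-like cells had an Acta2 UMI, with a median of 26.0 per 10000 UMIs and a highest value of 182.5. In S2D 19 of 23 had one, with a median of 109 and a highest of 219, so the ranges overlapped while the medians lay apart. In C6W the median was 154 (highest 302) and in S6W 107 (highest 213). Across the cells of a library, Spearman's rho of Acta2 with Rgs5 was -0.02 in C2D, -0.73 in S2D, -0.89 in C6W and -0.41 in S6W (24, 23, 18 and 16 cells that share a library). Rgs5 was found in 24 of 24 C2D cells, 14 of 23 S2D cells, 11 of 18 C6W cells and 14 of 16 S6W cells.

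**Figure D3:**
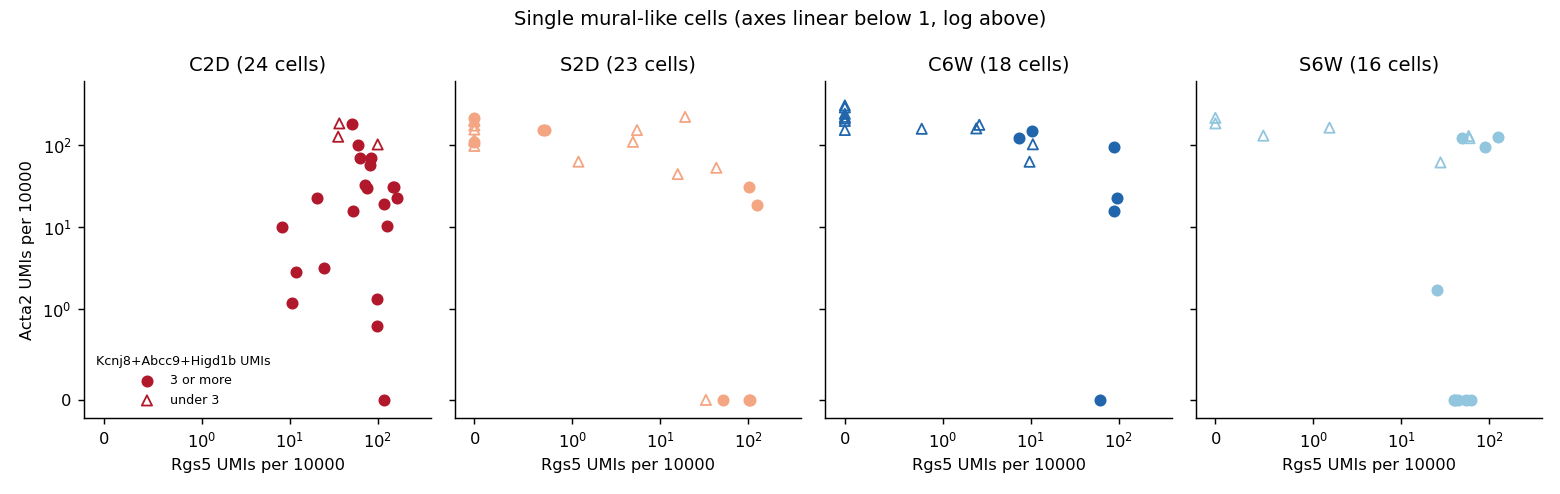
Acta2 against Rgs5 in single mural-like cells, in UMIs per 10000 of the cell (both axes linear below 1 and logarithmic above), with 1 panel per library. Filled circles are cells with 3 or more UMIs over Kcnj8, Abcc9 and Higd1b, open triangles those with fewer. All 24 C2D cells lie at 8.24 Rgs5 UMIs per 10000 or more, while the median of S2D is 1.18.

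Of the mural-like cells, 2 of 24 in C2D, 3 of 23 in S2D, 0 of 18 in C6W and 1 of 16 in S6W carried 20 or more UMIs of another class's markers, chiefly macrophage, B or endothelial genes. Without them the count at 2 days was again 6 of 8, with Acta2 at -1.67. A doublet call that took the highest scores at the expected rate removed 20 of the 23 S2D cells and left 3 with no Acta2 UMI, and under it none of the genes was lower. Of those 20 cells, 3 carried 20 or more UMIs of another class.

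At 6 weeks the mural-like ratios were positive for all 8 genes with the saline library of the same time. C6W was at least 2-fold above S6W for Myh11 (1.15, 0.91 to 1.38) and Tpm2 (1.05, 0.88 to 1.22), 2 of 8 genes, where 6.21% of 467 genes were higher. Acta2 was at 0.93 (0.83 to 1.02), Tpm1 at 0.79, Cnn1 at 0.72, Tagln at 0.63, Myl9 at 0.58 and Des at 0.31. The median of all 2381 genes measured was 0.16 here, and scaling by plain totals lowered every ratio by 0.24, which left no gene past 2-fold. Of 27 other cytoskeleton genes 10 were higher, led by Synm (1.85), Actg2 (1.81), Pln (1.61) and Nexn (1.55). Of 8 pericyte genes 5 were at least 2-fold lower (3% of all genes), with Kcnj8 at -2.92 and Vtn at -2.41. Cells with at least 3 UMIs over Kcnj8, Abcc9 and Higd1b were 6 of 18 in C6W and 9 of 16 in S6W. The part of the class's makeup in the 6-week ratios was not tested. The non-muscle genes Actb (-0.03), Actg1 (-0.07), Myl12a (-0.64), Tpm3 (-0.37), Tpm4 (-0.44) and Myh9 (-0.13) stayed within 2-fold, and Vim (1.02) was the 1 of 10 non-muscle relatives past it.

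Saline libraries differed as well. In mural-like cells S6W was lower than S2D for Myh11 (-1.30, -1.53 to -1.08), 1 of 8 genes, where 4.9% of 531 genes were lower and 3.39% higher, and the other 7 lay between -0.69 and 0.24. With S2D in place of S6W, the C6W ratio of Myh11 was -0.16 and that of Acta2 0.56, and none of the 8 was 2-fold higher. With S6W in place of S2D, the C2D ratios were -1.32 for Myh11, -1.34 for Acta2, and 5 genes were 2-fold lower, all of the 6 but Myl9. The comparisons share these libraries.

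In CPM, fibroblast-like cells had a lower level of each gene than mural-like cells, though in C2D they held 60.2% of the UMIs of the 8 genes. At 2 days 4 of 7 measured genes were at least 2-fold higher in C2D than in S2D, where 9.31% of 9931 genes were, and none was lower. They were Tagln at 4.81 (4.49 to 5.15), Acta2 at 3.58 (3.32 to 3.84), Tpm2 at 1.84 (1.70 to 1.99) and Tpm1 at 1.31 (1.18 to 1.44). On a linear scale Tagln was 28.0-fold and Acta2 11.9-fold higher. Des (0.35), Myl9 (-0.40) and Myh11 (0.23, with 14 UMIs in C2D and 7 in S2D) stayed within 2-fold, and Cnn1 had too few UMIs to compare. The 8 genes took 0.103% of fibroblast-like UMIs in C2D and 0.0362% in S2D.

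**Figure D4:**
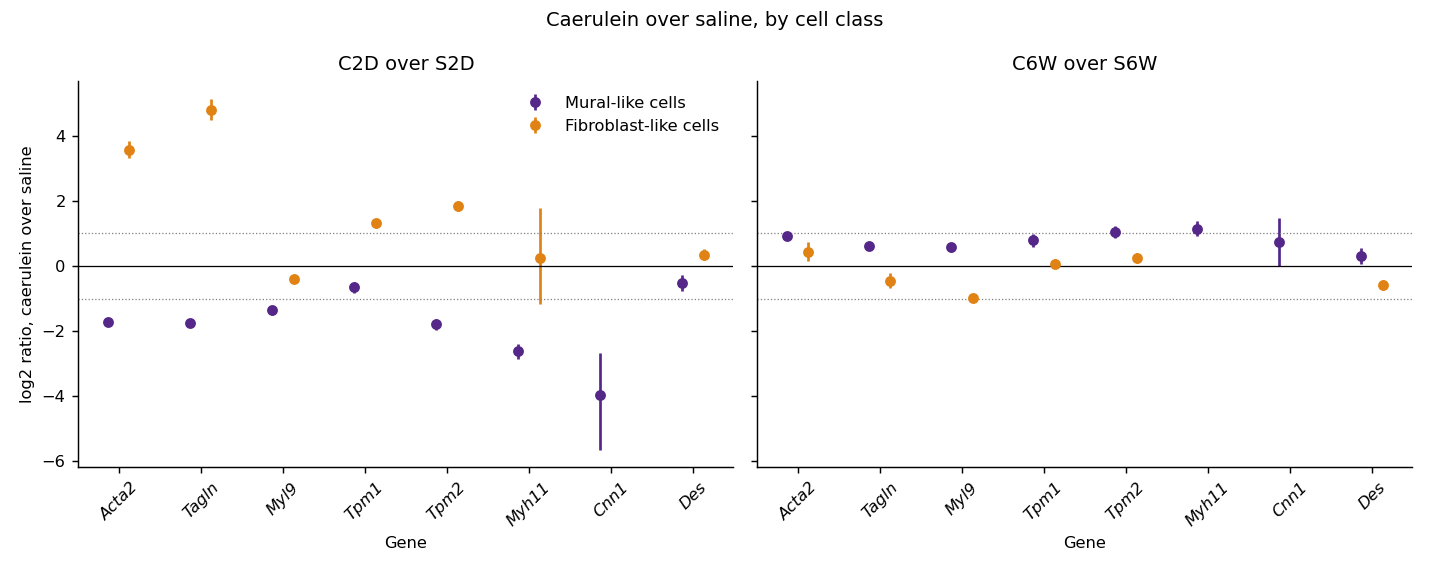
Log2 ratio of caerulein over saline with exact intervals for counting error, at 2 days (left) and 6 weeks (right), in mural-like and fibroblast-like cells. Dotted lines mark 2-fold. At 2 days Acta2, Tagln and Tpm2 lie past 2-fold in opposite directions in the 2 classes, while at 6 weeks no gene does.

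The relatives moved unevenly. Among 25 measured cytoskeleton genes 7 were at least 2-fold higher in C2D fibroblast-like cells and 4 lower. Fhl2 was at 3.03, Actg2 at 3.82 (24 UMIs against 1, 1.20 to 9.18), Ldb3 at 2.56 (20 against 2) and Pdlim3 at -1.95. The non-muscle genes Cnn2 (1.37), Vim (1.26) and Cnn3 (1.02) were higher, while Actg1 (0.77), Tpm4 (0.67), Myl12a (0.37), Myh9 (0.28), Actb (-0.12) and Tpm3 (-0.48) were not past 2-fold. Tgfb1 was at 1.87, Elk3 at 1.07, Pdgfrb at 0.89 and Smad3 at -1.05. Dissociation genes were lower for 5 of 18 (5.77% of all genes), such as Hspa1b at -3.37, and higher for 1, and their part in the result was not tested.

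Cell by cell, the tropomyosins and the actin pair were spread differently. Tpm2 was found in 90.8% of C2D fibroblast-like cells and 36.9% of S2D ones, with a median of 1.53 UMIs per 10000 in C2D and 0 in S2D. Acta2 was found in 44.8% of C2D cells (263 of 587) and 2.33% of S2D cells (16 of 686), with a median of 0 in both. The 59 C2D cells highest in each gene held 77.6% of the Acta2 UMIs and 34.4% of the Tpm2 UMIs. After each cell was thinned to 2000 UMIs, Acta2 was found in 15.5% of C2D cells (12.6 to 18.7%) and 0.588% of S2D cells, and Tpm2 in 30.9% and 11.3%. Acta2 was found in 1.78% of C2D macrophage-like cells, or 0.219% after thinning, and in 0 of 116 T-like and B-like cells of C2D. Its level of 1.31 CPM in C2D macrophage-like cells lay far below the 195 CPM of the fibroblast-like cells.

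Both were found in 163 C2D fibroblast-like cells, 4 of S2D, 12 of C6W and 12 of S6W. Of the C2D cells with Acta2, 62.0% also had Tagln. After thinning the pair was found in 7.90% of C2D cells and 0.441% of S2D cells. Myh11, in contrast, was found in 8 C2D cells and Cnn1 in 1. There were 191 Acta2 UMIs per Myh11 UMI in C2D fibroblast-like cells and 6.35 in C2D mural-like cells. At the mural-like ratio, the Myh11 UMIs of fibroblast-like cells would go with 3.32% of their Acta2 in C2D, 17.9% in S2D, 11.8% in C6W and 19.2% in S6W. This takes that ratio as fixed, while some C2D mural-like cells had Acta2 and no Myh11 UMI. The part of mural-like RNA or doublets in the Acta2 of fibroblast-like cells was not tested.

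**Figure D5:**
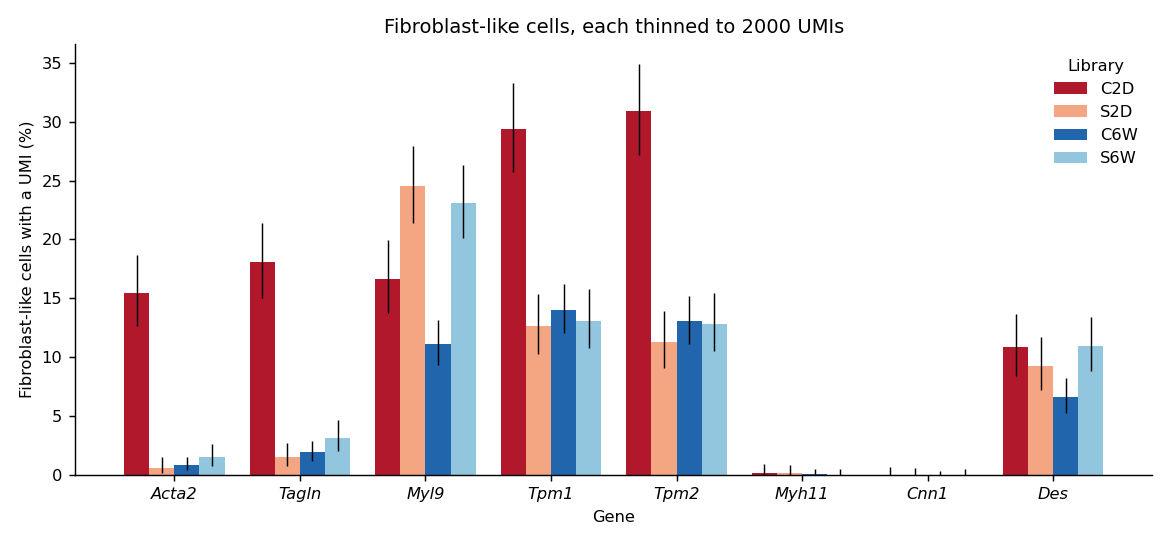
Share of fibroblast-like cells with at least 1 UMI of each gene (percent), after thinning each cell to 2000 UMIs, with exact Clopper-Pearson intervals; bars stand for the 4 libraries. C2D is highest for Acta2, Tagln, Tpm1 and Tpm2, and lower than S2D for Myl9.

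The fibroblast-like cells of the libraries fell into different clusters, which were made without integration. Different cells, the same cells in another state and a difference between libraries cannot be told apart here. Cluster 6, led by Mgp, Col3a1 and Col1a1 with Cilp and Postn, held 91.3% of C2D fibroblast-like cells and 0.583% of S2D ones, and at 203 CPM it carried 97.8% of their Acta2 UMIs in C2D. It also held 13 C6W cells and 5 S6W cells, in which Acta2 was at 660 and 476 CPM, and 4 S2D cells with no Acta2 UMI. Those 13 cells carried 60.1% of all fibroblast-like Acta2 in C6W. In the saline libraries most Acta2 was instead in cluster 16, which also had Ptn among its leading genes. It held 37 S2D and 55 S6W cells, with 241 and 134 CPM of Acta2 and 197.5 and 251 CPM of Des, and 75.8% and 61.3% of the class's Acta2. It held 33 C2D cells at 84.8 CPM of Acta2. Without cluster 16, a choice made after seeing the data, the Acta2 ratio was 5.57 at 2 days and 1.36 at 6 weeks. The Pi16 and Clec3b cluster 14 had 0 or 1 Acta2 UMI in every library.

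At 6 weeks none of 6 measured genes was 2-fold different in fibroblast-like cells, where 0.666% of 9903 genes were higher and 0.646% lower. Acta2 stood at 0.45 (0.17 to 0.73), Tpm2 at 0.25, Tpm1 at 0.07, Tagln at -0.45 and Des at -0.58. Myl9 was just short of the limit at -0.99 (-1.12 to -0.87), with 862 UMIs in C6W and 1387 in S6W. Its thinned share of cells was 11.1% in C6W and 23.1% in S6W, and at 2 days it was 16.7% in C2D and 24.6% in S2D. Between the saline libraries Tagln was at 1.54 in S6W over S2D, the only 1 of 6 past 2-fold (0.634% of 9467 genes were higher and 0.475% lower).

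Epithelial cells carried some of the genes as well. Tpm1 had 418 CPM in C2D ductal-like cells and 101 in S2D ones (log2 ratio 2.14, 2.01 to 2.27), and at 112 in C6W and 106 in S6W. In acinar-like cells Tpm1 stood at 76.7 CPM for C2D against 6.27 for S2D, and at 8.97 in C6W and 3.42 in S6W. Scaled for composition, its acinar-like log2 ratio at 2 days was 1.97 (1.47 to 2.52), smaller than the CPM values alone give. Tpm2, too, was higher in C2D ductal-like cells, at 18.8 CPM against 0.715 (80 UMIs against 5). Tagln was at 37.9 CPM in C2D ductal-like cells and 3.86 in S2D ones, and Cnn1 at 12.5 and 2.29, so this smooth muscle calponin was found in 17 of 176 C2D and 11 of 773 S2D ductal-like cells. T-like and B-like cells gave the floor of free RNA: 0 to 5 UMIs of each gene in each library except Tpm1, which had 6.19 to 17.8 CPM in them.

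The genes most like the 8 over 48 sums of cell class and library were Cacna1c (Pearson's r = 0.96), a calcium channel of muscle, Mark1 (0.95), Adamts8 (0.95), Bdnf (0.95), Tbx3os1 (0.94), Cspg4 (0.94), Jph2 (0.94), Hspb7 (0.93), Notch3 (0.93) and Bmp5 (0.92). Sums of the same library share its depth, and Cspg4 and Notch3 were among the mural markers. These values describe likeness of level across classes, and they have no test.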

How the data were processed

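The authors deposited unnormalised UMI counts, which are whole numbers for each gene in each barcode. Per the submitters' processing notes the build was mm10 and the tools were FastQC and Cell Ranger 3.0.2. A barcode needed 500 UMIs, 200 genes and no more than 20% mitochondrial UMIs to be used. Scrublet (scanpy 1.11.5) called 5, 38, 30 and 14 doublets in C2D, S2D, C6W and S6W; in C2D that is 5 of 4656 cells, so few that doublets are taken as still present there, and a call at the expected rate was run as an alternative. Counts were clustered by Leiden at resolution 1 over 40 components of 2000 variable genes, without the contractile genes and their relatives, with all libraries together and no integration, into 33 clusters in 15 named classes (435 cells unnamed).

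UMIs were summed per class and library. Ratios of caerulein over saline used TMM-scaled totals (edgeR 4.0.16, R 4.3.3; DESeq2 1.42.0 as an alternative) and were compared at 20 or more UMIs over both libraries, with all genes at 100 or more for the background share; a library at 0 was given 3 counts. List medians are set beside all genes at 20 or more UMIs. The class test used filterByExpr and Benjamini-Hochberg adjustment over all genes tested. All tests were two-sided. On simulated data the methods were tested with known changes. The members, lists and comparisons were chosen with earlier results of these data known. Beyond the members, up to 4 measured genes of a list with the largest ratios, 6 non-muscle relatives and the 10 genes most like the members were named; others (clusters' leading genes, Rgs5, Myocd in the comparison of classes) were chosen after their values were seen. Gene coordinates came from GENCODE vM21 and promoters from RefSeq. Replicate libraries were not analysed here. With library as a block, p-values of the class test set the class difference against its variation over 4 libraries of different groups.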

Additional observations from a re-analysis of the deposited data

Results flagged for a closer look

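At 2 days, 3 genes went past 2-fold in opposite directions in the 2 stromal classes under the same contrast of C2D over S2D. For Acta2 the log2 ratio was 3.58 in fibroblast-like cells and -1.72 in mural-like cells, a gap of 5.29. For Tagln the gap was 6.57 and for Tpm2 3.63. With 1 library per group, the difference between the classes was not tested.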

How the results depend on the processing

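All 8 genes were higher in mural-like cells under each alternative of the class tests (DESeq2 Wald test, plain totals, no filter, each library left out, 5 other cell or cluster settings), with 8 of 8 passing in each. No paired analysis was possible because each group of caerulein and saline has 1 library; in the class test, where library was the block, the fit with no replicate block also gave 8 of 8 in both comparisons. The 6 genes lower in C2D mural-like cells fell to 0 when doublets were taken by expected rate, which left 3 S2D cells, and to 0 in cells with fewer than 3 pericyte channel UMIs. Under the first, Acta2 and Tagln had 0 UMIs left in S2D, so their reversed log2 ratios of at least 4.92 (Acta2) and at least 4.55 (Tagln) are bounds against 3 counts. The reversed ratios of Myl9 (3.23), Tpm2 (2.95) and Myh11 (3.84) rest on 6, 4 and 1 S2D UMIs. S6W over S2D became 5.16 for Myh11, with 7 genes past 2-fold in place of 1; genes highest in mural-like cells in every library fell to 5 of 8. Under the second, Myl9 was at 0.13. The 2 genes higher in C6W mural-like cells were 0 with plain totals, with S2D as control (Myh11 -0.16) and in cells with fewer than 3 pericyte channel UMIs, and 1 after thinning or with doublets by expected rate. The count of genes higher in C2D fibroblast-like cells was 4 under each of the 13 alternatives run, while the log2 ratio of Acta2 ranged between 3.23 and 5.57 and that of Tagln between 3.27 and 5.61. At 6 weeks the fibroblast-like count of 0 became 1 under plain totals, thinning, S2D as control, contractile genes kept in clustering, doublets kept, doublets by expected rate and without cluster 16. Other causes were not tested. Cnn1 and Myh11 in fibroblast-like cells, with 14 or fewer UMIs, are limited by depth.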
